A study of Mus musculus with 51 samples.

Results

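Promoters marked by H3K4me3 in leptonema, the stage at which meiotic chromosomes begin to condense, were compared with those marked in early pachynema, when homologous chromosomes have just synapsed. H3K4me3 is trimethylation of lysine 4 of histone H3. The measurement was the list of called ChIP-Seq peaks of each library with the EpiCypher antibody, experiments 1 and 2 of each stage, so 4 of the 20 lists deposited for a series of 51 samples. A gene was counted in a library when a peak overlapped, by at least 1 bp, the 500 bp on either side of any of its annotated transcription start sites (TSSs, GENCODE M21, mouse genome build mm10, chromosomes 1 to 19). Of 51229 annotated genes, 12370 had such a peak in at least 1 of the 4 lists. Leptonema-only genes were called in both leptonema lists and in neither early pachynema list, early pachynema-only genes the reverse, and shared genes were called in all 4. These 3 classes held 7719 genes, and the remaining 4651 were called in other combinations.

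All libraries came from testes of adult wild-type C57Bl/6J mice, with no mutation or treatment in any group. Nuclei were fixed with formaldehyde, stained and sorted by flow cytometry. Leptotene nuclei were taken as positive for STRA8, which induces entry into meiosis, and for SYCP3, a protein of the chromosome axis. Early pachytene nuclei were taken by SYCP3, by high SYCP1, the transverse filament of the synaptonemal complex, and by the absence of the testis-specific histone H1t. A sorted population is not pure, and zygotene nuclei are named by the study as a contaminant of the early pachytene sort. Each library is 1 experiment, and tests over libraries measure the spread between these samples, which may be technical.

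H3K4me3 is laid down by the SET1 and MLL methyltransferases around the start sites of active and poised genes, most strongly where CpG dinucleotides are dense and unmethylated. Meiotic prophase starts with genes of premeiotic replication, chromosome axis and recombination. From pachynema onward, spermatocytes switch on a second programme, driven in large part by the transcription factors A-MYB and TCFL5, which prepares the meiotic divisions, the pachytene piRNA pathway and the sperm tail long before these are built. In meiotic prophase, H3K4me3 is also placed by PRDM9 at recombination hotspots, which lie mostly outside promoters. Hotspot peaks outside the TSS windows were not counted here, and any inside them were not removed.

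The 250 bases upstream of 1 start site of 7 genes are shown first, because these genes carry the contrast that follows. Sequences are from mm10, read 5′ to 3′ on the strand of the gene, with every CpG dinucleotide in capitals. Stra8 (chr6:34920710-34920959, plus strand), Zcwpw1 (chr5:137787548-137787797, plus strand) and Dmc1 (chr15:79605100-79605349, minus strand) were leptonema-only genes. Sycp3 (chr10:88459414-88459663, plus strand) was called in all 4 lists. Smpd5 (chr15:76294098-76294347, plus strand), Ldhal6b (chr17:5418768-5419017, minus strand) and Piwil1 (chr5:128735924-128736173, plus strand) were early pachynema-only genes.
Stra8: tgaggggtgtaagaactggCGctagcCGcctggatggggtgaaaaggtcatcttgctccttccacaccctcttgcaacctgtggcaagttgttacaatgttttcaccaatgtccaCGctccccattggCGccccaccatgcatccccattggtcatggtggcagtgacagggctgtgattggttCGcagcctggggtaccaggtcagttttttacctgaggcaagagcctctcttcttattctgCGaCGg
Zcwpw1: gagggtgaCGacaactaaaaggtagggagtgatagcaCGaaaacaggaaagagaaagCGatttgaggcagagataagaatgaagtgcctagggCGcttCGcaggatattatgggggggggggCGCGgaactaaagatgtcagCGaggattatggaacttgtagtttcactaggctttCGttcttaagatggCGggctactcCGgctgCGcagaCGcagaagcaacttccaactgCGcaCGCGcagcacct
Dmc1: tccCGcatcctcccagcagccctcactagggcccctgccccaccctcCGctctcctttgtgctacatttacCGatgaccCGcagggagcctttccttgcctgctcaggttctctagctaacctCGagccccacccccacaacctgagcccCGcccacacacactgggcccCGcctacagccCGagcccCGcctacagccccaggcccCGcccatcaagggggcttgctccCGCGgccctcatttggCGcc
Sycp3: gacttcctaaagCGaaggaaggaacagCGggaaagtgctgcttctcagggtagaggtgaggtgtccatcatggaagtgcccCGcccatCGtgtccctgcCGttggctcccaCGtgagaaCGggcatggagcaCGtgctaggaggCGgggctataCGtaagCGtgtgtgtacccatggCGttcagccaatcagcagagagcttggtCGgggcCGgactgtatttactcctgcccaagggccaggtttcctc
Smpd5: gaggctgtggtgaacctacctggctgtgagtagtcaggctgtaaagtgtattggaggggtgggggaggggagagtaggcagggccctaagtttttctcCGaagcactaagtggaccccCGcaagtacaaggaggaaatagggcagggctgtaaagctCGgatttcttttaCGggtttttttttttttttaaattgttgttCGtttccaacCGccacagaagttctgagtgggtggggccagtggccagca
Ldhal6b: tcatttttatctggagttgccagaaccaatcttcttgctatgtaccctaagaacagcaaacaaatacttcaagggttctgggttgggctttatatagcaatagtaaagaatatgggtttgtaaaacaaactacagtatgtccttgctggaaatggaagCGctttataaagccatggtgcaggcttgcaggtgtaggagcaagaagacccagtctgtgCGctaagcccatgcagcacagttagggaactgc
Piwil1: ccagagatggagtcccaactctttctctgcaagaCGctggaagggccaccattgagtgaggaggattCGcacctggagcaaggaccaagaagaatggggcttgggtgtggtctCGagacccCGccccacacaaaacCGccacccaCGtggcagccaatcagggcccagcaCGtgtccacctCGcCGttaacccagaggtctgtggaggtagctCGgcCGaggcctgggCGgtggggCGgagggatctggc

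The stretches hold 7 CpG dinucleotides for Stra8, 16 for Zcwpw1, 13 for Dmc1, 14 for Sycp3, 6 for Smpd5, 2 for Ldhal6b and 13 for Piwil1. The number of CpGs relative to that expected from the base composition was highest at Zcwpw1 (1.00) and lowest at Ldhal6b (0.171). CpG density thus varied as much within a class as between them in these examples. The values for whole classes are given further on.

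More promoters were called in leptonema than in early pachynema in the deposited lists. The leptonema lists had a peak at the TSS of 9617 genes in experiment 1 and 11892 in experiment 2, and the early pachynema lists at 8309 and 6208, or 18.8%, 23.2%, 16.2% and 12.1% of the annotated genes. Both leptonema values lay above both early pachynema values. The mean was 10754 ± 1609 genes (SD, n = 2 libraries) in leptonema and 7258 ± 1486 in early pachynema (p = 0.333 by a two-sided exact permutation test, the lowest value open to 2 libraries against 2, so that no difference can pass 0.05). The difference was 1308 genes within experiment 1 and 5684 within experiment 2.

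There were 1775 leptonema-only genes, 3.46% of the annotated genes, in 1604 merged sites. The early pachynema-only genes numbered 115 (0.224%) in 97 sites, and the shared genes 5829 (11.4%) in 4605 sites. Of the leptonema-only genes 1436 were protein-coding, 6.90% of all protein-coding genes. Of the early pachynema-only genes 80 were protein-coding (0.384%), 14 were lincRNAs and 7 antisense RNAs. The lists are not strand-specific, and 39.0% of the leptonema-only, 36.5% of the early pachynema-only and 54.0% of the shared genes had a TSS window that overlapped that of another gene, so that their peaks cannot be assigned to 1 of them. Single libraries set the class sizes: leptonema-only genes numbered 3855 without leptonema experiment 1 and 3565 without early pachynema experiment 1, and early pachynema-only genes 288 without leptonema experiment 2 and 275 without early pachynema experiment 2.

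The class sizes depended on the lengths of the lists. The leptonema lists held 9528 and 13095 peaks with median widths of 586 bp and 690.0 bp, and the early pachynema lists 6647 and 4883 peaks with medians of 491 bp and 380.0 bp. When the 4883 widest peaks were kept from each list, the order of the 2 stages turned around. Leptonema then had 5455 and 5806 genes and early pachynema 6412 and 6208, a difference of -679.5 between the means (p = 0.333 by the same exact permutation test). At this size there were 624 leptonema-only genes (1.22% of annotated genes), 1187 early pachynema-only genes (2.32%) and 3014 shared genes (5.88%).

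The threshold of width that this imposed was unequal. The narrowest peak kept and the widest one dropped were both 573 bp in leptonema experiment 1, both 848 bp in experiment 2 and both 324 bp in early pachynema experiment 1. No peak was dropped from early pachynema experiment 2, the narrowest of which was 154 bp. A gene with a leptonema peak of 500 bp was therefore counted as absent from leptonema at equal list size. In total 451 leptonema-only genes (0.880% of annotated genes), 70 early pachynema-only genes (0.137%) and 3014 shared genes met the definition with the full lists and at equal list size both. This stricter grouping was chosen after the data were seen. In the plot of class sizes the full lists and the 3 trimmed versions stand side by side.

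**Figure D1:**
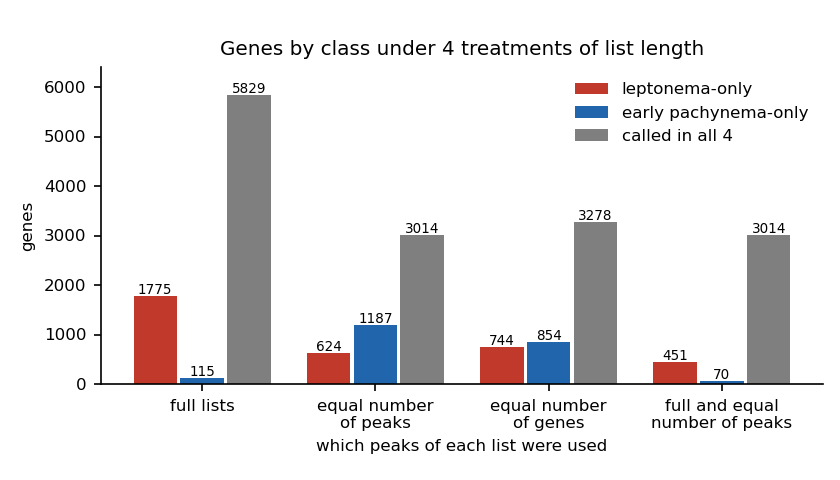
Number of genes (y axis) in the leptonema-only (red), early pachynema-only (blue) and shared (grey) classes with the full lists, with an equal number of peaks or genes per list, and meeting both the first and the second definition. Early pachynema-only genes number 115 with the full lists and 1187 at equal list size, and leptonema-only genes 1775 and 624.

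Calls were also uneven between the experiments of a stage. Leptonema experiment 2 alone had a peak at 2080 genes, against 133 in leptonema experiment 1 alone, 160 in early pachynema experiment 1 alone and 19 in early pachynema experiment 2 alone. A further 1790 genes were called in all lists but early pachynema experiment 2, the shortest. Leptonema experiment 2 differed from leptonema experiment 1 in the kind of gene as well, with 9793 and 8160 protein-coding genes called. It had a peak at 100 of 174 developmental transcription factor genes, against 20 in leptonema experiment 1, at 31 of 39 Hox genes against 2, and at 42 of 67 clustered histone genes against 4. Markers of Sertoli cells, the somatic cells that enclose the spermatocytes, had a peak at 5 of 15 genes in leptonema experiment 2 and at 0 in the other 3 lists. In early pachynema, experiments 1 and 2 had 10 and 7 developmental transcription factor genes and 1 and 3 histone genes. Experiment 2 was again higher in diplonema, with 64 developmental transcription factor genes against 18 and 32 histone genes against 9. Over all protein-coding genes the diplonema numbers were 9747 and 6095. Zygonema experiment 2 had 32 histone genes against 2. None of 35 marker genes of Sertoli, Leydig, peritubular, vessel and immune cells was in any of the 3 classes.

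The genes of the proteins used for sorting follow first. In leptonema, Stra8 had an H3K4me3 peak of 586 bp (experiment 1) and 2065 bp (experiment 2), at chr6:34920110-34922174. No peak was called there in zygonema, early pachynema, late pachynema or diplonema. The Abcam antibody, which binds H3K4me2 as well as H3K4me3, gave Stra8 peaks of 2234 bp in leptonema and 1593 bp in zygonema and none later. Sycp3 was a shared gene at both list sizes, with leptonema widths of 1191 bp and 2199 bp and early pachynema widths of 875 bp and 678 bp. Sycp1 had 1053 bp and 839 bp in leptonema and 689 bp in both early pachynema libraries. Hist1h1t, the gene of H1t, had a peak of 258 bp in leptonema experiment 1 and none in experiment 2 or in early pachynema. Among the 4 genes of the sorting proteins, Stra8 was the only member of a 1-stage class.

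Of 34 genes of spermatogonia and of the entry into meiosis, 10 were leptonema-only, or 29.4% against 6.90% of all protein-coding genes. Early pachynema-only genes were 0 of 34, against 0.384%. The leptonema-only members were Stra8, Gm4969, Dmrt1, Dmrtb1, Sohlh2, Etv5, Rara, Rarg, Uchl1 and Kdm1b. At equal list size 6 were leptonema-only (17.6% against 2.30%), and again 0 early pachynema-only, against 4.94%. With these low backgrounds, the list is too short for either 0 to be read as a contrast. Gm4969 encodes MEIOSIN, the partner of STRA8 in switching on meiotic genes, and its leptonema peaks spanned 1045 bp and 2598 bp. Dmrt1, a DM-domain factor that restrains meiosis in spermatogonia, had 1262 bp and 1658 bp. Rarg, a receptor for retinoic acid, had 911 bp and 1333 bp. In zygonema each of these 3 genes kept a peak in only 1 of the 2 libraries, of 418 bp at Gm4969, 890 bp at Dmrt1 and 443 bp at Rarg. Etv5, a transcription factor of spermatogonial stem cells, had 801 bp and 1637 bp in leptonema and narrower peaks of 182 bp and 436 bp in zygonema.

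Replication genes were the next group with several members. Of 60 genes of premeiotic S-phase replication, 11 (18.3% against 6.90% of protein-coding genes) were leptonema-only, 26 were shared and 0 were early pachynema-only, where 24.1% and 0.384% of protein-coding genes were. E2f1, a transcription factor of S-phase genes, had leptonema peaks of 912 bp and 1670 bp. Cdc6, which loads the replicative helicase, had 501 bp and 642 bp, and Mcm2, a subunit of that helicase, 222 bp and 893 bp. Clspn, a mediator of the replication checkpoint, had 489 bp and 851 bp. With lists of equal size 2 of the 60 genes were leptonema-only and 2 were early pachynema-only, with backgrounds of 2.30% and 4.94%. The histone genes Hist1h3a and Hist1h4a, which supply nucleosomes during replication, shared a leptonema peak of 1271 bp in experiment 1 and 1870 bp in experiment 2. Of 67 clustered histone genes 3 were leptonema-only (4.48% against 6.90%).

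Among recombination genes, 3 of 13 genes of DNA break formation (23.1%), 4 of 25 genes of strand exchange (16.0%) and 2 of 18 crossover genes (11.1%) were leptonema-only, and 0 genes of these lists were early pachynema-only. The background was 6.90% and 0.384% of protein-coding genes, and the counts are small. Zcwpw1, a reader of the marks that PRDM9 leaves at hotspots, had a wide leptonema peak, of 3127 bp and 2748 bp at chr5:137785764-137788891. Its zygonema peaks were 1027 bp and 346 bp, and later peaks were called only in experiment 2, with 257 bp in late pachynema and 160 bp in diplonema. Mei4 and Mei1, both needed for break formation, had 684 bp and 924 bp, and 297 bp and 899 bp. Neither gene had a zygonema peak.

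Dmc1, the meiosis-specific recombinase, had 934 bp and 1093 bp in leptonema, 622 bp and 181 bp in zygonema and no later peak. Msh5, which stabilises crossover intermediates, had 688 bp and 1086 bp. Dmc1, Msh5 and Zcwpw1 stayed leptonema-only at equal list size, and Mei1 did not. At equal list size 4 of the 25 strand exchange genes were leptonema-only and 5 were early pachynema-only, and of the 18 crossover genes 2 and 3, with backgrounds of 2.30% and 4.94%.

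With the full lists, structural genes of the synapsed chromosome were mostly shared. Of 19 genes of the chromosome axis and cohesin 13 (68.4%) were called in all 4 lists, against 24.1% of protein-coding genes, and 0 were called at 1 stage only. In the central region of the synaptonemal complex 3 of 6 genes were shared, and Syce3 was leptonema-only with 672 bp and 1339 bp. At equal list size 11 of the 19 axis and cohesin genes were shared, 1 was leptonema-only and 1 early pachynema-only, and of the 6 central region genes 2 were shared and 3 leptonema-only. The background at that size was 12.3% of protein-coding genes shared, 2.30% leptonema-only and 4.94% early pachynema-only. Of 23 regulators of the pachytene stage, 16 (69.6%) were shared and 1 was leptonema-only with the full lists.

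Leptonema-only peaks of high width rank follow. Ptma, the gene of prothymosin alpha, had 3491 bp and 3744 bp in leptonema and no early pachynema peak. It was called again in experiment 2 of late pachynema (3487 bp) and diplonema (3750 bp), but in neither list of experiment 1. Auts2, a gene of neuronal development, had 2815 bp and 3210 bp. Igf1r, the receptor for insulin-like growth factor 1, had 2352 bp and 2579 bp, and Foxo3, a transcription factor downstream of that receptor, 1836 bp and 3311 bp. Zfp827, a zinc finger gene, had 2136 bp and 3277 bp in leptonema and no peak in any of the other 8 H3K4me3 lists. Kmt2a, a methyltransferase of H3K4 itself, had 1052 bp and 1655 bp. It was 1 of 3 leptonema-only genes among 22 H3K4 methyltransferases and demethylases (13.6% against 6.90% of protein-coding genes). Of the 22 genes 14 (63.6% against 24.1%) were shared.

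Early pachynema-only genes had other known functions. The widest peaks were those of Smpd5, a sphingomyelinase gene, with 1886 bp and 1706 bp in early pachynema at chr15:76293624-76295668, and 566 bp in zygonema experiment 2 only. Late pachynema had 1922 bp and 2004 bp there and diplonema 2051 bp and 2672 bp. Slc2a3, which encodes the glucose transporter GLUT3, had 1113 bp and 1050 bp in early pachynema, 872 bp and 351 bp in zygonema, and 1914 bp and 2671 bp in diplonema. Ptchd3, a patched-domain gene, had 1058 bp and 799 bp in early pachynema, none in zygonema, 1050 bp and 1491 bp in late pachynema and 2438 bp and 2475 bp in diplonema. In each of these 3 genes the diplonema peaks were wider than those of early pachynema in both experiments.

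Genes of the sperm tail had the most members in this class among the lists counted. Of 77 axoneme genes, which build the microtubule core of cilia and flagella, 8 (10.4%) were early pachynema-only, against 0.384% of all protein-coding genes, and 1, Drc3, was leptonema-only. The 8 genes were Dnah7a, Rsph1, Gas8, Ccdc39, Spag6l, Spag16, Cfap65 and Zmynd10, of which the last 4 are named after their values were seen. Dnah7a, a heavy chain of the inner dynein arm, had 670 bp and 625 bp in early pachynema. Rsph1, a radial spoke protein, had 569 bp and 471 bp, and was also called in zygonema with 517 bp and 807 bp. Gas8, of the nexin-dynein regulatory complex, had 319 bp and 367 bp, and Ccdc39, a ruler of axonemal repeats, 321 bp and 334 bp. In diplonema experiments 1 and 2 the widths were 553 bp and 1389 bp at Dnah7a, 645 bp and 741 bp at Rsph1, 407 bp and 1031 bp at Gas8, and 1099 bp and 1532 bp at Ccdc39. Both diplonema peaks were wider than both of early pachynema at Rsph1, Gas8 and Ccdc39, and at Dnah7a that of experiment 1 was narrower.

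Axoneme genes with a peak numbered 14 and 26 in leptonema, 21 and 15 in zygonema and 29 and 22 in early pachynema. They numbered 35 and 57 in late pachynema and 61 and 65 in diplonema. Over all protein-coding genes the numbers were 8160 and 9793 in leptonema, 7676 and 7472 in zygonema and 7066 and 5312 in early pachynema. Late pachynema had 5568 and 8394 protein-coding genes with a peak, and diplonema 6095 and 9747. The axoneme counts of leptonema and early pachynema overlapped. Of the 77 genes 7 were called in all 4 lists of these stages, 23 in other combinations and 38 in none. At equal list size 6 of the 77 genes (7.79% against 4.94% of protein-coding genes) were early pachynema-only and 1 leptonema-only, so that the share lay closer to the background than with the full lists. Of the 8 genes above, Dnah7a and Rsph1 were in the class at both list sizes (2.60% of the 77), and of the 6 genes at equal list size 4 had a peak in a full leptonema list.

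Other genes of the late programme were found in this class in small numbers. Ldhal6b, a testis paralog of lactate dehydrogenase, had 714 bp and 501 bp in early pachynema, none in zygonema, 723 bp and 961 bp in late pachynema and 1652 bp and 1776 bp in diplonema. Dkkl1, which encodes a protein of the acrosome, had 395 bp and 315 bp. Piwil1, the gene of the pachytene piRNA protein MIWI, had 576 bp and 154 bp, then 748 bp and 1478 bp in late pachynema. Ccna1, the cyclin required for the male meiotic divisions, had only 173 bp and 197 bp in early pachynema and was not early pachynema-only at equal list size. Its peaks were 394 bp and 1253 bp in late pachynema and 1385 bp and 1673 bp in diplonema. For the whole lists, early pachynema-only genes numbered 2 of 68 for spermiogenesis, 1 of 29 for the piRNA pathway and 1 of 31 for the meiotic divisions, or 2.94%, 3.45% and 3.23% against 0.384% of protein-coding genes. With 1 or 2 genes per list, nothing can be read from these shares.

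Some groups had many more members in the early pachynema-only class when the lists were cut to the same size. Ribosomal protein genes went from 0 to 17 of 75, genes of oxidative phosphorylation from 2 to 20 of 91, proteasome subunits from 1 to 14 of 48, and the piRNA pathway from 1 to 10 of 29. The early pachynema-only background was 0.384% of protein-coding genes with the full lists and 4.94% at equal list size. With the full lists, against 24.1% shared among protein-coding genes, 48 of the 75 ribosomal protein genes were shared, 58 of 91 of oxidative phosphorylation and 34 of 48 of the proteasome. Of the 1187 genes, 1117 had a peak in at least 1 full leptonema list, and so did all 17 ribosomal protein genes, 18 of the 20 of oxidative phosphorylation, all 14 of the proteasome and 9 of the 10 of the piRNA pathway. Most of these promoters were thus present in the full leptonema lists with peaks under the limit of 573 bp or 848 bp.

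**Figure D2:**
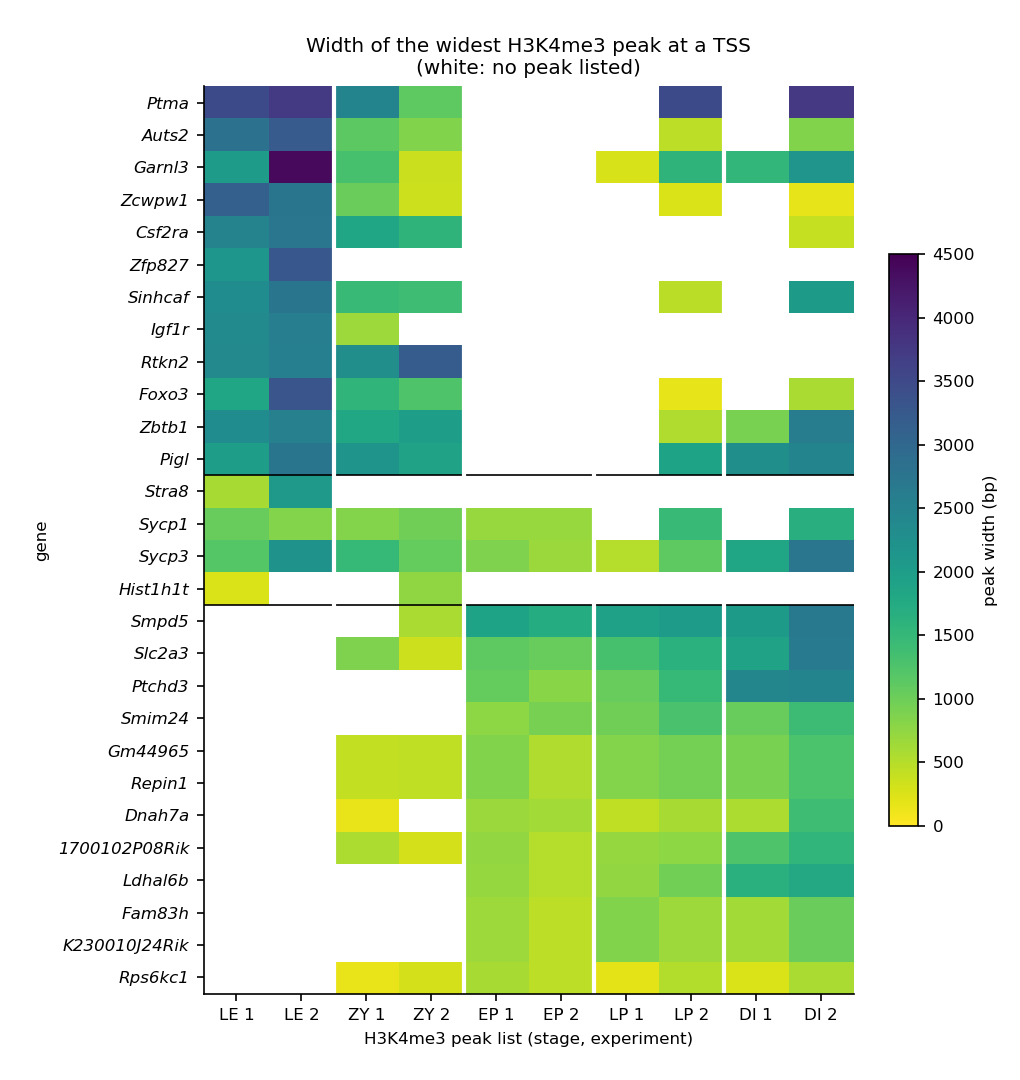
Width in bp (colour scale) of the widest H3K4me3 peak at a TSS of each gene (rows) in each list (columns: leptonema LE, zygonema ZY, early pachynema EP, late pachynema LP and diplonema DI, experiments 1 and 2), white where no peak was listed. The 12 leptonema-only genes with the highest width ranks stand at the top, the 4 genes of the sorting proteins in the middle and the 12 early pachynema-only genes with the highest ranks at the bottom, whose peaks go on into diplonema, as at Smpd5 with 2051 bp and 2672 bp.

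**Figure D3:**
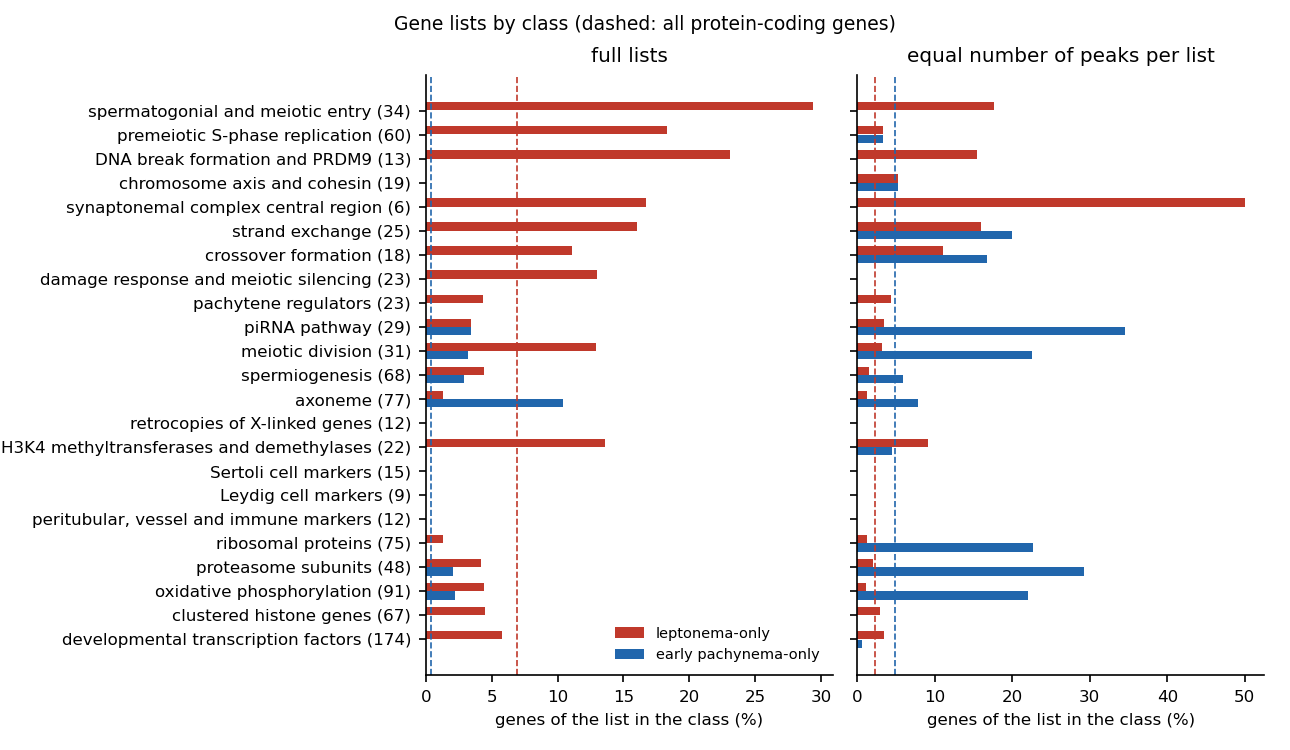
Percentage of the genes of each list (x axis, number of genes in brackets) that were leptonema-only (red) or early pachynema-only (blue), with the full lists on the left and an equal number of peaks per list on the right, and dashed lines at the percentage of all protein-coding genes. With the full lists, spermatogonial and meiotic entry genes reach 29.4% in red and axoneme genes 10.4% in blue.

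The 6 H3K4me3 lists of zygonema, late pachynema and diplonema were not used to form the classes. Early pachynema-only genes were found in the later lists far more than in zygonema. A peak was called at 25.2% (exact 95% interval 17.6 to 34.2) and 30.4% (22.2 to 39.7) of the 115 genes in zygonema experiments 1 and 2, at 87.8% and 93.9% in late pachynema, and at 87.8% and 94.8% in diplonema. The zygonema and later libraries did not overlap, with means of 27.8% ± 3.69 (SD, n = 2) and 91.1% ± 3.78 (SD, n = 4). The difference of -63.3 percentage points had the lowest p open to 2 libraries against 4 (p = 0.133, two-sided exact permutation test), so that 0.05 cannot be reached. Over all annotated genes, a peak was called at 17.9% and 17.4% in zygonema, at 12.8% and 19.6% in late pachynema, and at 14.6% and 23.5% in diplonema.

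Of the 115 genes, 91 (79.1%) had a peak in all 4 late pachynema and diplonema lists and 70 (60.9%) had none in zygonema. Only 2 genes had no later peak. Among the 70 genes that were early pachynema-only at both list sizes, 65 (92.9%) were in all 4 later lists. Peaks at the early pachynema-only genes were also wider later on, with median widths of 381 bp and 290.0 bp at first, 416 bp and 774 bp in late pachynema, and 877 bp and 1245 bp in diplonema. The first of these came from the lists that chose the genes. Peaks widened over the same stages elsewhere as well, with medians at shared genes of 637 bp and 415 bp in early pachynema and 837 bp and 1195 bp in diplonema, and over all peaks of a list of 491 bp and 380.0 bp and then 689 bp and 773 bp.

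The 1187 genes of the equal-size definition behaved otherwise. They were called at 91.1% and 89.6% in zygonema against 82.2% to 99.1% later, a difference of -1.83 points (p = 0.800, two-sided exact permutation test, 0.133 being the smallest possible). Most of the genes added by cutting the leptonema lists thus had a zygonema peak, and the course of the 115 genes was not that of the larger set.

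Leptonema-only genes did not have 1 common course. Of the 1775 genes 611 (34.4%) had a peak in both zygonema lists, 543 in 1 and 621 (35.0%) in none. The shares with a peak were 52.9% and 46.5% in zygonema, 4.23% and 46.5% in late pachynema, and 16.0% and 63.5% in diplonema, where experiment 1 was the lower in both late stages. The zygonema mean of 49.7% ± 4.50 (SD, n = 2) and the later mean of 32.6% ± 27.3 (SD, n = 4) differed by 17.2 points, less than the spread of the later libraries (two-sided exact permutation test, p = 0.533). For the leptonema-only genes at equal list size the difference was 30.4 points with a later SD of 28.6, and for those of both definitions 31.8 points with 28.0 (p = 0.267 each by the same exact test, 0.133 being the lowest possible). With the same number of widest peaks from each of the 6 lists the difference was -0.380 points. Within experiment 1 the share was lower after early pachynema than in zygonema, and within experiment 2 it was the same in late pachynema and higher in diplonema. The shorter lists are those of experiment 1, with 5189 and 6645 peaks in late pachynema and diplonema against 9124 and 12071.

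A peak in none of the other 6 H3K4me3 lists was found at 264 leptonema-only genes (14.9%), and in all 6 at 26 (1.46%). A further 847 genes (47.7%) had a peak in the longer but not the shorter diplonema list. Mei4 and Stra8 were among the genes with no other H3K4me3 peak, and so was Mcm2. Shared genes were called in 82.2% to 98.8% of cases in each of the 6 lists, and 4409 of 5829 (75.6%) had a peak in all of them.

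**Figure D4:**
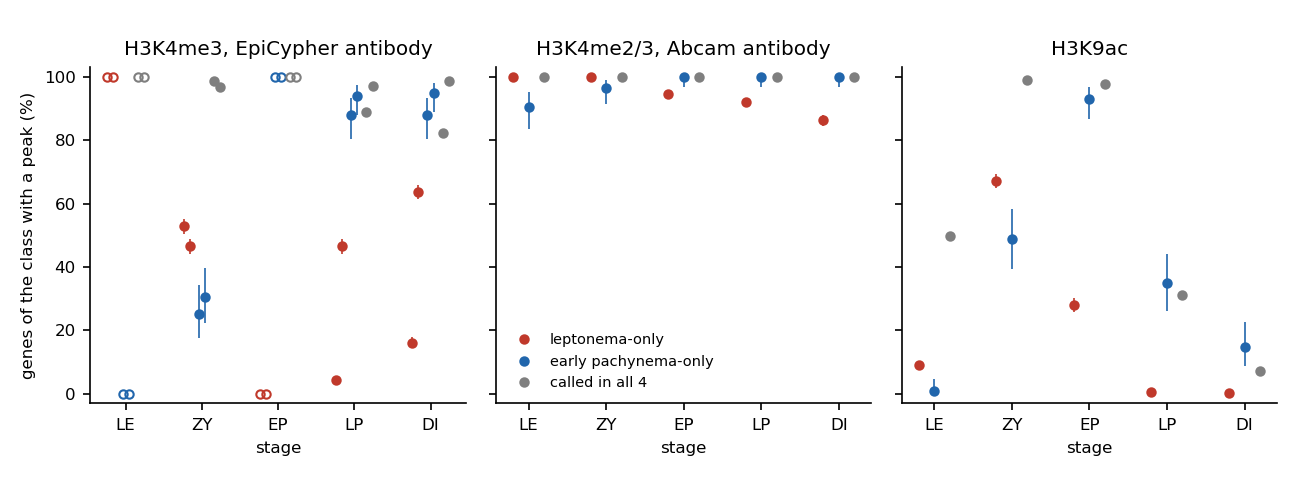
Percentage of leptonema-only, early pachynema-only and shared genes (y axis) with a TSS peak in each H3K4me3, Abcam H3K4me2/3 and H3K9ac library by stage (x axis), with exact 95% intervals that cover counting error over genes only. Values of 0 or 100% in the 4 H3K4me3 lists of leptonema and early pachynema are fixed by the definition of the classes, and early pachynema-only genes go from 25.2% and 30.4% in zygonema H3K4me3 to 87.8% and 94.8% in diplonema.

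The Abcam H3K4me2/3 lists, 1 per stage from experiment 2, gave a second view with another antibody. They have no replicates and no test was made. Nearly all members of both classes had an Abcam peak at both stages. Of the leptonema-only genes, 99.9% had one in leptonema and 94.4% in early pachynema, and of the early pachynema-only genes 90.4% and 100.0%. Over all annotated genes the Abcam share was 35.2%, 31.7%, 28.2%, 29.8% and 28.6% from leptonema to diplonema. At leptonema-only genes the share went on to 91.9% in late pachynema and 86.3% in diplonema. The absence of an EpiCypher peak was therefore seldom the absence of an Abcam peak. The Abcam lists are longer, from 17561 to 30943 peaks.

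When each Abcam list was cut to its 17561 widest peaks, the share of early pachynema-only genes with a peak was 64.3% in leptonema and 70.4% in zygonema, against 100.0% in each of the 3 later stages. Shared genes had 99.3% in leptonema and 99.5% in zygonema at this size. The cut removed no peak from the early pachynema list and shortened the others, and its part in the contrast was not tested. For the leptonema-only genes the share in order of stage was 98.8%, 94.9%, 94.4%, 89.9% and 85.3%.

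The width of the Abcam peaks differed between stages in the same direction as the EpiCypher calls. Widths were ranked within each list as percentiles, and only genes with an Abcam peak at both stages were compared. At 1676 leptonema-only genes the median percentile was 81.3 in leptonema and 58.2 in early pachynema, and 1464 genes (87.4%) ranked higher in leptonema. At 104 early pachynema-only genes it was 58.2 and 76.4, and 80 genes (76.9%) ranked higher in early pachynema. Over all 13990 genes with both peaks, 64.4% ranked higher in leptonema, with a median difference of 5.06 percentile points. Against this background the median difference was 19.2 points for leptonema-only, -16.5 for early pachynema-only and 0.224 for shared genes. With genes that met both definitions it was 13.1 points for 423 leptonema-only and -22.6 for 64 early pachynema-only genes. With the classes of equal list size it was 10.8 points for 596 leptonema-only genes. For 1181 early pachynema-only genes of that size it was only -2.22 points, with 56.6% ranked higher in early pachynema. For experiment 2 of leptonema the study lists the same purity and chromatin for both antibodies, so these libraries may share their sorted nuclei and are then not independent of each other.

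In single genes the Abcam widths ran along the same lines. From leptonema to diplonema, Dmc1 had 2415 bp, 1265 bp, 898 bp, 1021 bp and 413 bp. Dmrt1 had 2768 bp, 1881 bp, 1351 bp and 367 bp in the first 4 stages and none in diplonema. Ccna1 had 893 bp, 302 bp, 1095 bp, 2588 bp and 3196 bp over the 5 stages. Ptma, by contrast, had 4119 bp to 4937 bp at every stage, although EpiCypher lists of early pachynema held no peak there.

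**Figure D5:**
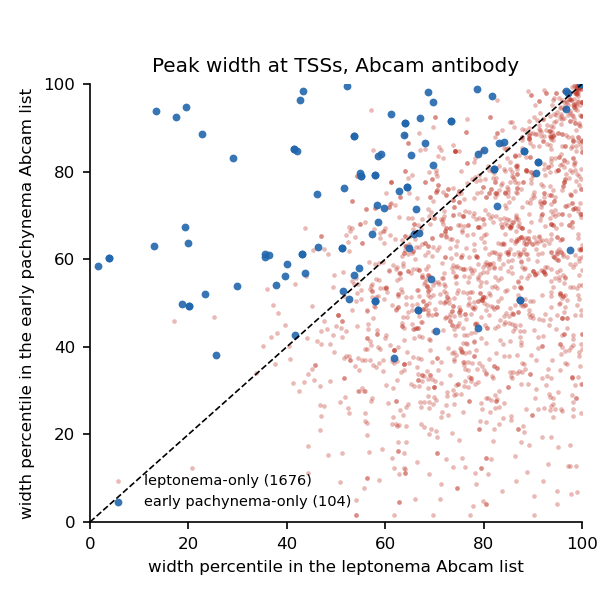
Abcam H3K4me2/3 peak width percentile within the leptonema list (x axis) and the early pachynema list (y axis) for leptonema-only (red) and early pachynema-only (blue) genes with a peak in both, 1 point per gene, with a dashed line at equal percentiles. Of the leptonema-only genes 87.4% lie below the diagonal, ranking higher in leptonema, and 76.9% of the early pachynema-only genes lie above it.

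H3K9ac, an acetylation found at active promoters, was listed once per stage from experiment 1. GEO's labels for these samples name an H3K4me3 antibody while titles and methods name H3K9ac, and the values are given under the title. Of the 115 early pachynema-only genes, 107 (93.0%, exact 95% interval 86.8 to 96.9) had an H3K9ac peak in early pachynema and 1 (0.870%, 0.0220 to 4.75) in leptonema. In zygonema 48.7% had one, in late pachynema 34.8% and in diplonema 14.8%. Over all genes the H3K9ac shares from leptonema to diplonema were 7.07%, 20.7%, 17.4%, 4.11% and 1.03%. Leptonema and early pachynema had list lengths of 2823 and 7744 peaks.

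The leptonema-only genes were not the mirror image. From leptonema to diplonema, an H3K9ac peak was called at 8.90%, 67.2%, 28.0%, 0.563% and 0.282% of them. A peak in leptonema and not in early pachynema was found at 79 genes, and the reverse at 418. Shared genes had one at 49.7% in leptonema, 99.1% in zygonema and 97.7% in early pachynema. The H3K9ac list of zygonema is the longest of the 5, with 16003 peaks, and that of diplonema the shortest, with 516. Cut to that size, the lists leave too few peaks for a comparison.

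Shared genes differed in width. Width percentiles of both leptonema libraries lay above both of early pachynema at 1856 of the 5829 genes (31.8%) and below both at 1226, while at 2747 (47.1%) the stages overlapped. The gap exceeded 20 percentile points at 570 genes in favour of leptonema and at 195 in favour of early pachynema. These percentiles are taken among all peaks of lists of unequal length. When widths were ranked among the 5829 genes alone, a choice made after the data were seen, the balance turned, with 1386 genes ranked wider in both leptonema lists and 1733 in both of early pachynema, and with 422 and 399 past a gap of 20 points. No excess of either stage can therefore be read from these counts, which come from the lists that chose the genes.

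With percentiles among all peaks, the largest gap towards leptonema was at P4hb, which encodes protein disulfide isomerase, with leptonema widths of 2408 bp and 2208 bp against 186 bp and 184 bp. Pbx3, a homeobox gene, had 2341 bp and 2735 bp against 294 bp and 154 bp, and Ncapg2, a subunit of condensin II, 1331 bp and 1926 bp against 241 bp and 154 bp. On the other side, Ssx2ip, a centrosomal protein gene, had 232 bp and 432 bp against 1124 bp and 787 bp. B3galnt1, a glycosyltransferase gene, had 151 bp and 539 bp against 1169 bp and 995 bp. The Abcam widths in leptonema and early pachynema were 2928 bp and 2459 bp at P4hb, and 1546 bp and 2296 bp at B3galnt1.

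In 4 genes the lists of the 2 stages marked different start sites. At Pou6f1, a POU-domain factor gene on chromosome 15, both leptonema lists and neither early pachynema list had a peak at TSSs at 100599864 and 100599984, with 193 bp and 493 bp. The early pachynema lists had 942 bp and 1078 bp at the TSS at 100580231, 19633 bp away and downstream on the minus strand. At Per1, a gene of the circadian clock on chromosome 11, the leptonema start was at 69095217 with 297 bp and 738 bp, and that of early pachynema at 69098948, 3731 bp downstream, with 946 bp and 328 bp. At Trim13 on chromosome 14 the starts were 1293 bp apart, and at Wdfy3 on chromosome 5 they were 218408 bp apart. Each of these genes was counted as shared at the level of the gene. A leptonema-only TSS beside one called in all 4 lists was found in 186 genes and an early pachynema-only TSS beside one in 10 genes.

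Beyond TSSs, the 4 lists merged into 14328 sites, of which 70.7% lay at a TSS. Sites called in both leptonema lists only numbered 2707, with 58.0% at a TSS. In early pachynema only they numbered 132, with 78.0% at a TSS, and sites in all 4 lists 4440, with 98.9%.

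The sequence of the promoters was not used by the definition of the classes. Each of the 20807 protein-coding genes was given the 250 bases before and 50 bases after 1 of its start sites. This was the start with the widest peaks in the 4 lists, so it was chosen with the peaks that formed the classes. Genes with no such peak were given the start with the most transcripts. The CpG ratio, observed over expected from base composition, had a median of 0.778 at leptonema-only, 0.632 at early pachynema-only and 0.881 at shared promoters, against 0.581 over all promoters and 0.233 at promoters with no peak in the 4 lists. A GC content of at least 50% with a ratio of at least 0.6 was found at 77.3%, 52.5% and 87.8% of the 3 classes and at 46.2% of all promoters. Leptonema-only promoters were therefore nearer to the shared ones, and early pachynema-only promoters nearer to the average promoter. At equal list size the early pachynema-only promoters stood close to the leptonema-only ones, both under the shared promoters, with medians of 0.824, 0.803 and 0.921 in the same window. In windows of 500 bp on either side of the start the medians were 0.727, 0.544 and 0.823 with the full lists and 0.780, 0.745 and 0.865 at equal list size.

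Short words known from transcription factors were counted on both strands of the same 300 bases. AACTGNC, a core recognised by A-MYB, was present in 16 of 80 early pachynema-only promoters (20.0%, exact 95% interval 11.9 to 30.4). It was in 8.70% of leptonema-only promoters (7.30 to 10.3), 10.0% of shared promoters and 12.0% of all promoters. For this word, the shares of all promoters and of promoters with no peak in the 4 lists lay inside the early pachynema-only interval. CACGTG, an E-box bound by basic helix-loop-helix factors, was in 20.0% (11.9 to 30.4) of early pachynema-only, 10.3% of leptonema-only, 11.1% of shared and 7.69% of all promoters. GTTGCCA, a half-site of the RFX factors of ciliary genes, was in 10 of 80 early pachynema-only promoters (12.5%, 6.16 to 21.8), 2.37% of leptonema-only and 4.25% of all promoters. AACTGNC and GTTGCCA can share bases at their ends, and the overlap was not counted. At equal list size the shares in early pachynema-only promoters were 12.4% for AACTGNC, 11.6% for CACGTG and 5.36% for GTTGCCA.

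The remaining words had other patterns. CCGGAAG, bound by ETS factors, was in 26.4% of shared promoters, 18.8% of early pachynema-only, 10.5% of leptonema-only and 11.4% of all promoters. GGGCGG, the GC box of Sp1 family factors, was in 74.1% of leptonema-only, 56.2% of early pachynema-only, 71.5% of shared and 45.3% of all promoters. CCTCAG, taken as the core of the STRA8 and MEIOSIN element, was in 29.7% of leptonema-only promoters (27.3 to 32.1) and 27.6% of all promoters, a value inside that interval. A word in a promoter is a match of letters and no measure of binding.

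In the 250 bases printed above, the upstream stretch of Stra8 holds AACTGNC and CCTCAG, that of Ldhal6b GTTGCCA and a TATAAA box, and those of Sycp3 and Piwil1 CACGTG and GGGCGG. Ldhal6b had the fewest CpGs of the 7 promoters and was called in no leptonema or zygonema H3K4me3 list.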

How the data were processed

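Chromatin of nuclei sorted from mouse testis was analysed by ChIP-Seq. Per the labels and the methods, the authors aligned reads to mm10 with BWA mem 0.7.12 and called peaks of each H3K4me3 library with MACS2 2.1.2 in broad mode against input of the same stage. The control used for H3K9ac is not given in the sources used here. The submitters' processing notes also list deepTools 3.0.1. The deposited lists give only the position of each peak, with no score, signal or read count. Library depths that the study states were not used here, and a deeper or purer library can give a longer list with wider peaks. Replicates were not pooled. Spike-in normalization is not part of the lists. Of 51 samples, those without a list, such as input, were not analysed here.

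Peaks were assigned to GENCODE M21 start sites, 500 bp on either side with at least 1 bp of overlap, in 125891 windows. This is not the release that the study used. For equal list size, the 4883 widest peaks of each list were kept. Exact 95% binomial intervals cover counting error over genes only. Groups of libraries were compared by two-sided exact permutation tests, with a threshold of 0.05. Promoters were read from the mm10 sequence. Calculations used Python 3.11.15 with numpy 2.4.6 and scipy 1.17.1. Only the class rule was checked on simulated lists, made for isolated genes whose windows overlap no other gene's.

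Classes, gene lists and words were chosen with earlier results of these data known. The genes named were the 12 with the highest mean width percentile per 1-stage class with the full lists and at equal list size, up to 4 per gene list and class, up to 8 with different start sites, 6 shared genes per direction of the width gap, and the genes of the sorting proteins. Not all are printed. In all, 27 gene lists were counted. Symbols not found on the autosomes of the annotation were left out.

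The alternatives were equal numbers of peaks or genes, the wider peaks of each list, other windows, protein-coding starts, a larger overlap, genes with windows of their own, leaving out each library, a replicate block, merging within 500 bp and, for widths, ranks among shared genes alone.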

Additional observations from a re-analysis of the deposited data

Results flagged for a closer look

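The difference between leptonema and early pachynema in the number of genes with a TSS peak was not the same in each experiment and for each mark. With the EpiCypher H3K4me3 antibody, leptonema had 1308 genes more in experiment 1 and 5684 more in experiment 2. With the Abcam H3K4me2/3 antibody in experiment 2 it had 3605 genes more. With H3K9ac in experiment 1 the difference was -5306 genes, so early pachynema had more. Each of these is a difference between 2 libraries, the Abcam and H3K9ac lists have 1 library per stage, and whether the differences themselves differ was not tested. List lengths moved in the same directions, with 2823 H3K9ac peaks in leptonema and 7744 in early pachynema, and 30943 and 17561 Abcam peaks. The part of list length in these differences was not tested.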

How the results depend on the processing

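List length and single libraries both moved the class sizes. Equal list size gave 624 leptonema-only, 1187 early pachynema-only and 3014 shared genes, in 493, 978 and 2140 merged TSS sites, and turned the difference in the number of genes between stages to -679.5. An equal number of genes per list gave 744, 854 and 3278 genes, and the full lists with equal list size both, added after seeing the data, 451, 70 and 3014. Among the wider peaks of each list, leptonema-only genes numbered 1344, of which 515 were leptonema-only with the full lists. Early pachynema-only genes numbered 233, of which 28 were in that class with the full lists, and shared genes 2328. Genes whose windows overlap no other gene numbered 1082, 73 and 2681. By construction, this setting tests fewer genes. With equal list size in the 6 lists not used by the classes, the leptonema-only difference of zygonema from later stages turned to -0.380 points. Shared genes ranked wider in leptonema less those wider in early pachynema went from 630 to -347 when ranked among shared genes alone (added after seeing the data). For the other reversals and changes the cause was not tested.

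Leaving out a library or an experiment gave 1814 to 5841 leptonema-only, 133 to 644 early pachynema-only and 5847 to 7665 shared genes. Merged sites ranged from 1603 to 3523, from 116 to 257 and from 4394 to 5799. The difference in the number of genes ranged from 2358 to 4634, and genes with different TSSs from 5 to 9. Neither experiment reversed this difference. Other windows, a larger overlap, protein-coding starts and merging within 500 bp kept the class sizes within 1.5 times, but not always the members. With an overlap of at least 250 bp there were 1965 leptonema-only genes, which held 1257 of the 1775 of the full lists. The 77 early pachynema-only genes held 57 of the 115.

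Experiment numbers are shared by the stages, but the width percentiles of shared genes did not deviate together by number (Pearson r = 0.0388 across 5829 genes, which are not independent replicates). With the replicate block the difference stayed 3496 genes (p = 0.500 by an exact permutation test over the 2 pairs, the lowest possible). Gene list counts moved at equal list size in 40 of 81 cases, and shares of promoters with a word in 14 of 39. In windows of 500 bp on either side of the start, 34 of the 39 word shares moved. Of 62 named leptonema-only genes 35 stayed in the class at equal list size, and of 23 early pachynema-only genes 17. The lists carry no read depth per peak, so a promoter without a peak was not detected rather than shown to lack the mark.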
